A study of Mus musculus with 6 samples.

Results

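The hedgehog pathway genes described here are the ligand gene *Shh*, the receptor genes *Ptch1* and *Smo*, the gene of the ligand-binding inhibitor *Hhip*, the co-receptor genes *Boc* and *Gas1*, and the genes of the transcription factors *Gli1*, *Gli2* and *Gli3*. These 9 genes were given by symbol, with no threshold on their measured values, and were found among 56748 gene identifiers in the deposited counts. All 9 passed the filter on low counts that left 18188 genes for testing.

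In this pathway, secreted hedgehog ligand binds the receptor PTCH1 and thereby relieves the inhibition that PTCH1 exerts on the transmembrane protein SMO. SMO then acts in the primary cilium to shift the GLI proteins from repressor to activator forms. *Gli1*, *Ptch1* and *Hhip* are themselves transcribed in response to the signal, PTCH1 and HHIP holding it back and GLI1 reinforcing it. In the embryonic ureter, the epithelium makes SHH and the surrounding mesenchyme receives it. FOXF1 and BMP4 act downstream of it in the mesenchyme, from which smooth muscle cells form.

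Ureters from E12.5 wildtype mouse embryos of the NMRI strain were explanted and cultured for 18 h, either with 15 mM LiCl or with water as control, and their poly-A RNA was sequenced. The data comprise 3 control and 3 LiCl samples, and no other allele or agent differs between the groups. LiCl inhibits the kinases GSK3A and GSK3B and was used by the study as an activator of canonical WNT signaling, to model ectopic signaling in the ureteric epithelium. It was added to the medium of the whole explant, and these bulk data do not show which cells responded. The same kinases also phosphorylate GLI proteins, so the salt is not specific to the WNT pathway. The labels do not say how many ureters each sample held or whether samples came from separate cultures, so that p-values measure only the spread between these samples.

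The total counts ranged from 28473436 to 31266945 per sample, and the groups separated on the first dimension of a multidimensional scaling, with 55.5% of the variance. *Axin2* and *Notum*, commonly used readouts of canonical WNT signaling, were higher with LiCl by 0.92 and 2.03 on the log2 scale (adjusted p = 1.4e-06 and 3.6e-06, edgeR's quasi-likelihood test). Markers of both ureteric compartments were present in every sample. Some libraries stood apart. The summed level of 6 skeletal muscle markers was 1.91 to 4.25 CPM (read counts relative to the TMM-scaled size of each library) in the controls, and 29.9, 4.80 and 61.4 CPM in LiCl replicates 1, 2 and 3. Results that depend on LiCl replicates 1 and 3 are therefore also given for LiCl replicate 2 alone against the 3 controls, a comparison in which the lone sample is assumed to vary like the controls.

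Of the 9 genes, *Gli1* was higher with LiCl and *Hhip*, *Boc*, *Gli2* and *Gas1* were lower at an adjusted p under 0.05 (edgeR's quasi-likelihood test, Benjamini-Hochberg over all 18188 genes). The other 4 genes, *Shh*, *Ptch1*, *Smo* and *Gli3*, did not pass this test. The same rule called 21.1% of all tested genes higher and 22.4% lower. None of the 9 had a log2 fold change above 1 or below -1 at any p, in edgeR, DESeq2 or limma. This fold threshold was passed, at an adjusted p under 0.05, by 7.33% of all tested genes. The CPM of the groups did not overlap for 5 of the 9 genes, a share near the 54.2% of all tested genes. By the adjusted p, 55.6% of the 9 genes were called, with 1 higher and 4 lower. Counts from 9 genes are too few to set this group apart, and no test of the group was run. The median log2 fold change of the 9 genes was -0.18, within a range from -0.78 to 0.28, and that of all tested genes was -0.01. In absolute size the median was 0.28 for the 9 genes and 0.26 for all tested genes.

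**Figure D1:**
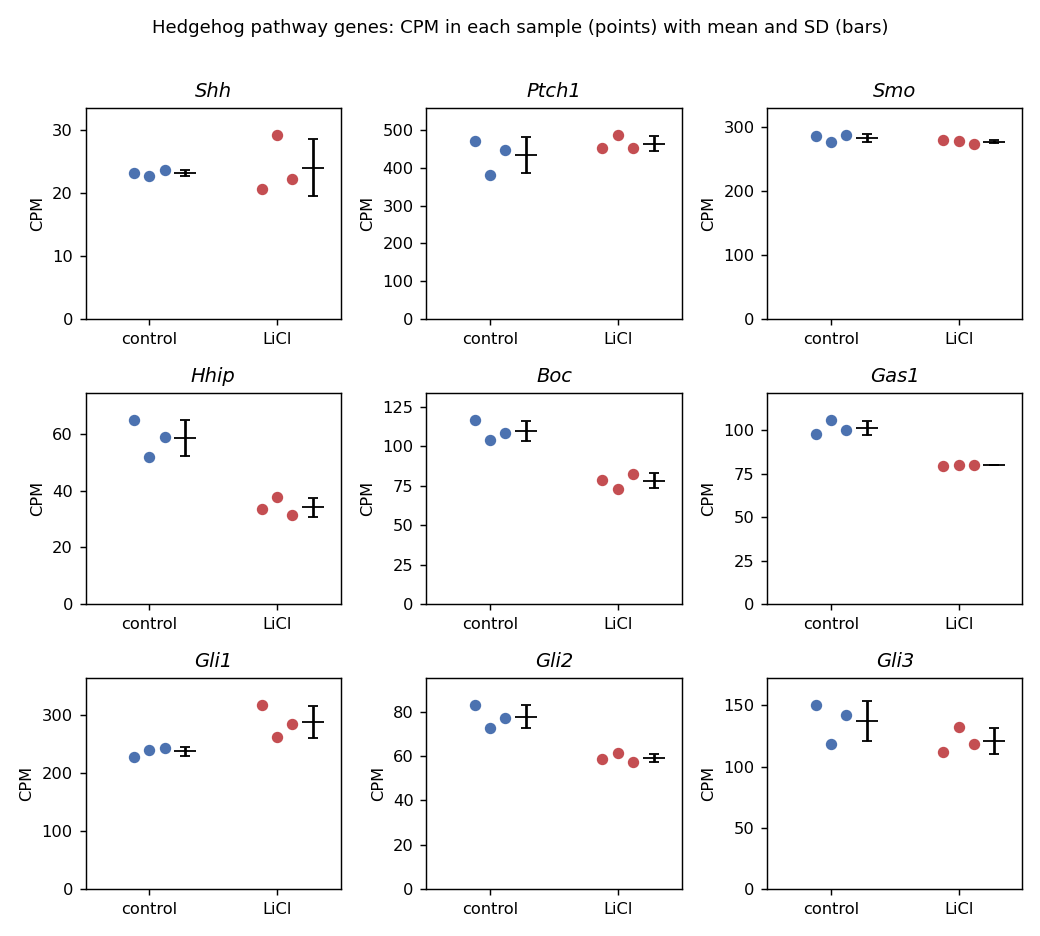
Level of each of the 9 genes in CPM (vertical axes from 0) in the 3 control (blue) and 3 LiCl (red) samples, with the mean and SD of each group beside the points. The groups lie apart for *Hhip*, *Boc*, *Gas1*, *Gli1* and *Gli2*, and overlap for *Shh*, *Ptch1*, *Smo* and *Gli3*.

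*Shh* encodes the ligand that the ureteric epithelium secretes. Its level was 23.2, 22.7 and 23.7 CPM in control replicates 1 to 3 and 20.7, 29.1 and 22.2 CPM in LiCl replicates 1 to 3. The LiCl samples lay on both sides of the narrow control range, and LiCl replicate 2 held the highest value of the 6. The fitted log2 fold change was 0.05 (standard error, SE, 0.12, 95% interval -0.21 to 0.31, adjusted p = 0.77, edgeR's quasi-likelihood test). This interval reaches from a fall of 13.7% to a rise of 23.8%. With LiCl replicate 2 alone against the controls the value was 0.34 (adjusted p = 0.033), and without LiCl replicate 2 it was -0.11, so that a single library decides its sign.

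The receptor gene *Ptch1* had 471.0, 381 and 448 CPM in the controls and 452, 485 and 453 CPM with LiCl. All LiCl values fell within or just above the control range, in which replicate 2 was low. The log2 fold change was 0.10 (SE 0.07, 95% interval -0.07 to 0.26, adjusted p = 0.32). *Smo*, whose product transmits the signal into the cell, varied little, from 276 to 286 CPM in the controls and from 273 to 279 CPM with LiCl. Its log2 fold change was -0.03 (95% interval -0.12 to 0.06, adjusted p = 0.59, edgeR's quasi-likelihood test), which limits a change to between a fall of 8.08% and a rise of 4.44%.

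*Hhip*, which encodes a membrane-bound protein that captures hedgehog ligand, fell the most among the 9 genes. It had 64.9, 52.0 and 58.9 CPM in the controls and 33.6, 37.8 and 31.3 CPM with LiCl. Every LiCl sample lay well below the lowest control. The log2 fold change was -0.78 (SE 0.09, 95% interval -0.99 to -0.57, adjusted p = 0.0002, edgeR's quasi-likelihood test). The level fell by 41.6% (interval 32.4% to 49.5%). Only 8.41% of all tested genes had a lower log2 fold change. *Hhip* was also lower with LiCl replicate 2 alone, at a log2 fold change of -0.62 (adjusted p = 0.009).

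*Hhip* and *Ptch1* are both response genes of the pathway that encode ligand-binding inhibitors, yet they differed in how they moved. Within each sample, the log2 ratio of *Hhip* to *Ptch1*, in FPKM, was -2.22, -2.23 and -2.28 in the controls and -3.11, -3.04 and -3.21 with LiCl. The ratio was 0.88 lower on the log2 scale with LiCl, and the spread within each group was an SD of 0.03 and 0.09. The groups did not overlap, and the two-sided exact permutation test gave p = 0.1, the smallest value that 3 against 3 samples allow (adjusted p = 0.233 over 7 ratios). The difference between their log2 fold changes was not tested in any other way.

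For this pair, the 250 bases before the annotated transcription start are shown as given by RefSeq for the assembly GRCm38.p6, on the strand of the gene, which is the minus strand for both. The capitals mark each CpG dinucleotide, the site of DNA methylation in mammals. The *Hhip* window lies at chr8:80058009-80058258 and the *Ptch1* window at chr13:63565736-63565985.
Hhip: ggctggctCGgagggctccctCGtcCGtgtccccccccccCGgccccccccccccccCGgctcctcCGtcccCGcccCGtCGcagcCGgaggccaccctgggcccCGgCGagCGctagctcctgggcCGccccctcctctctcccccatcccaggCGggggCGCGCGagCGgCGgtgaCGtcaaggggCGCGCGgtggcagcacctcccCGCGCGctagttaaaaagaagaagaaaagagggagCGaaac
Ptch1: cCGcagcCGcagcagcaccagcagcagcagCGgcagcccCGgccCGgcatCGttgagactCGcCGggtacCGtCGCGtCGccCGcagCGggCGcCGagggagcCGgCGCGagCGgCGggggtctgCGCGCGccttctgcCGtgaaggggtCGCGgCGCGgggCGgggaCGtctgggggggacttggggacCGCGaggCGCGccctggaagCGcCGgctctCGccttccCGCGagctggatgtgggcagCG
Both windows are rich in G and C, with 76.0% and 28 CpG for *Hhip* and 78.4% and 41 CpG for *Ptch1*, against medians of 52.4% and 6 CpG over 32851 RefSeq promoter windows of the same length. Windows were matched for 6 of the 9 genes, namely *Ptch1*, *Smo*, *Hhip*, *Gas1*, *Gli2* and *Gli3*. *Shh*, *Gli1* and *Boc* are named only. The GLI word GACCACCCA occurred on either strand in 0.225% of all windows, and the TCF/LEF words CTTTGAT and CTTTGAA in 3.21% and 4.46%. None of these exact letters occurred in the 6 windows, which says nothing about binding of these factors.

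The co-receptors BOC and GAS1 present the ligand to PTCH1 at the cell surface, and the transcripts of both were lower with LiCl. *Boc* had 117, 104 and 109 CPM in the controls and 79.0, 73.2 and 82.7 CPM with LiCl. The lowest control exceeded the highest LiCl sample, and the log2 fold change was -0.49 (SE 0.06, 95% interval -0.63 to -0.35, adjusted p = 0.00028, edgeR's quasi-likelihood test). *Gas1* had 98.2, 106 and 100.4 CPM in the controls and 79.8, 80.2 and 80.3 CPM with LiCl. The 3 LiCl samples were nearly alike and all below the controls. The fitted log2 fold change was -0.34 (SE 0.05, 95% interval -0.45 to -0.24, adjusted p = 0.00043). With LiCl replicate 2 alone, *Boc* had a log2 fold change of -0.58 and *Gas1* of -0.33 (adjusted p = 0.0031 and 0.025). The log2 ratio of *Gas1* to *Boc* within samples was 0.48 in the controls and 0.62 with LiCl, and the groups overlapped (two-sided exact permutation test, p = 0.3, adjusted p = 0.35).

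The genes of the GLI transcription factors did not move together. *Gli1*, which encodes an activator and is widely used as a readout of hedgehog activity, had 228, 239 and 243 CPM in the controls and 316, 261 and 284 CPM with LiCl. All LiCl samples were above all controls, but LiCl replicate 2 was so by a small margin. The log2 fold change was 0.28 (SE 0.07, 95% interval 0.12 to 0.43, adjusted p = 0.0096, edgeR's quasi-likelihood test), an increase of 21.3%. With LiCl replicate 2 alone against the controls the log2 fold change was 0.15 and the call was lost (adjusted p = 0.19). In that comparison 2014 of all tested genes were called higher and 2117 lower, fewer than with 3 LiCl samples. The call was kept when LiCl replicate 1 or LiCl replicate 3 alone was left out, at 0.21 and 0.29 (adjusted p = 0.021 and 0.027). The part of skeletal muscle cells in the rise of *Gli1* was not tested.

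*Gli2*, which encodes the main activator in many tissues, had 83.0, 72.7 and 77.4 CPM in the controls and 58.8, 61.1 and 57.3 CPM with LiCl. No LiCl sample reached the lowest control, and the log2 fold change was -0.39 (SE 0.06, 95% interval -0.53 to -0.26, adjusted p = 0.0007, edgeR's quasi-likelihood test). It was -0.34 with LiCl replicate 2 alone (adjusted p = 0.035). *Gli3*, whose product is cut to the main repressor when ligand is absent, had 150.3, 119 and 142 CPM in the controls and 112, 133 and 119 CPM with LiCl. Its groups overlapped, since control replicate 2 lay within the range of the LiCl samples. The log2 fold change of *Gli3* was -0.18 (SE 0.09, 95% interval -0.39 to 0.03, adjusted p = 0.14), and without control replicate 2 it was -0.27 (adjusted p = 0.023).

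**Figure D2:**
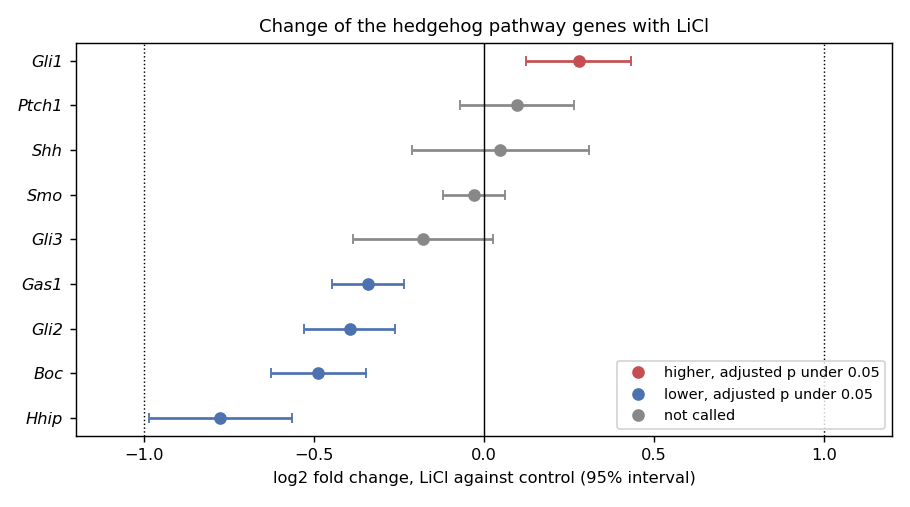
Log2 fold change of the 9 genes, LiCl against control (horizontal axis), with its 95% interval from edgeR's quasi-likelihood fit; dotted lines mark a log2 fold change of -1 and 1. *Gli1* lies at 0.28 with an interval above 0, and the 4 genes in blue lie between -0.34 and -0.78 with intervals below 0.

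The log2 ratio of *Gli1* to *Gli2* in FPKM was 1.92, 2.18 and 2.11 in the controls and 2.89, 2.55 and 2.77 with LiCl. It was thus 0.67 higher on the log2 scale with LiCl, without overlap between the groups (two-sided exact permutation test, p = 0.1, adjusted p = 0.233 over 7 ratios). The ratio of *Gli1* to *Gli3* overlapped between the groups, with a mean difference of 0.45 (p = 0.2 by the same exact test). The ratio of *Gli2* to *Gli3* was 0.22 lower with LiCl without overlap (exact p = 0.1). The ratios of *Ptch1* to *Smo* and of *Shh* to *Ptch1* differed by 0.13 and -0.07 and overlapped (exact p = 0.2 and 0.7). None of the 7 ratios could pass a threshold of 0.05 in this design.

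**Figure D3:**
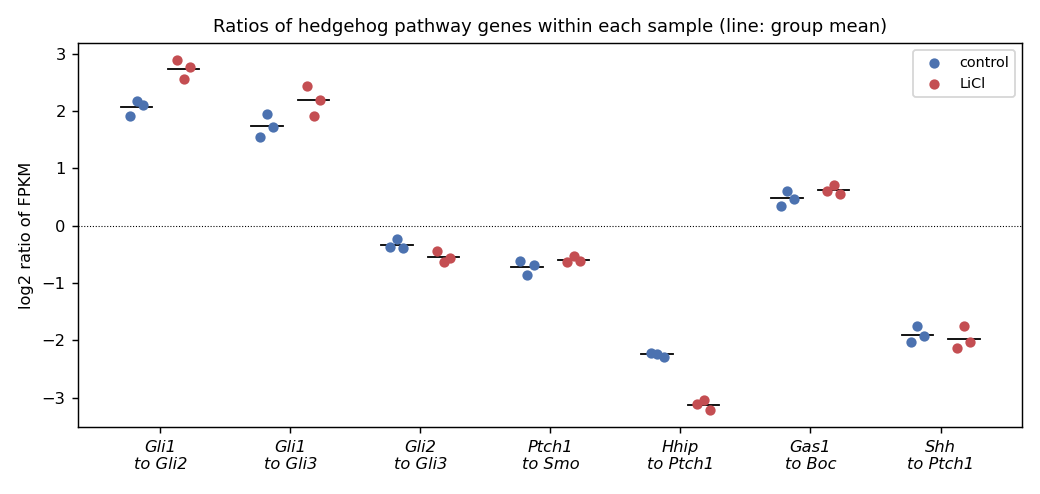
Log2 ratio of 2 genes in FPKM within each sample (vertical axis) for 7 gene pairs, in the 3 control (blue) and 3 LiCl (red) samples, with a line at each group mean. The groups lie apart for *Gli1* to *Gli2*, *Gli2* to *Gli3* and *Hhip* to *Ptch1*, and the widest gap is that of *Hhip* to *Ptch1*, from -2.24 to -3.12.

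Per transcript length, in FPKM, *Smo* and *Gli1* were the most abundant of the 9 transcripts and *Hhip* the least. In the controls, *Smo* had 49.7 ± 0.83 FPKM (SD, n = 3), followed by *Gli1* with 46.9 ± 1.87, *Gas1* with 33.9 ± 1.54, *Ptch1* with 30.2 ± 3.08 and *Boc* with 24.4 ± 1.25. *Gli3* followed with 14.1 ± 1.60 FPKM, *Gli2* with 11.2 ± 0.67, *Shh* with 8.06 ± 0.15 and *Hhip* with 6.38 ± 0.67. Only the neighbours *Gas1* and *Ptch1* overlapped in their range over samples.

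With LiCl, *Gli1* with 57.5 ± 5.58 FPKM (SD, n = 3) stood above *Smo* with 49.2 ± 0.44, and *Ptch1* with 32.7 ± 1.26 stood above *Gas1* with 27.1 ± 0.12. The order below these was as in the controls, with *Boc* at 17.6 ± 1.10, *Gli3* at 12.6 ± 1.11, *Gli2* at 8.61 ± 0.26, *Shh* at 8.44 ± 1.57 and *Hhip* at 3.77 ± 0.36 FPKM. *Gli2* and *Shh* overlapped in this group. These levels are averages over the explant, in which ligand-producing and ligand-receiving cells are mixed.

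In bulk samples, fewer cells of a type and less RNA per cell cannot be told apart, and markers of both compartments moved with the treatment. The summed level of 10 epithelial markers was 1357 to 1684 CPM in the controls and 1033 to 1081 CPM with LiCl, 8 of the 10 being lower and 1 higher. *Cdh1*, which encodes the epithelial cadherin, was lower by 0.99 on the log2 scale, whereas *Epcam* was higher by 0.37. The summed level of 11 mesenchymal markers was 6642 to 7374 CPM in the controls and 4840 to 5324 CPM with LiCl. Of these markers, 7 were lower and 2 higher. Most of the sum came from *Col1a1* and *Col3a1*, with means of 2614 and 1867 CPM in the controls and 1984 and 1211 CPM with LiCl. No marker was at 0 in every sample. The part of these shifts in the values of the 9 genes was not tested.

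Set against the mean log2 level of the epithelial markers, *Shh* was 0.54 higher with LiCl on the log2 scale, without overlap between the groups (two-sided exact permutation test, p = 0.1, adjusted p = 0.15 over 9 genes). Set against the mesenchymal markers, *Gli1* was 0.60 higher, *Ptch1* 0.43 higher and *Smo* 0.29 higher, and *Hhip* was 0.45 and *Boc* 0.16 lower, each without overlap (exact p = 0.1 each). *Gas1*, *Gli2* and *Gli3* overlapped between the groups on this scale, with differences of -0.02, -0.07 and 0.15 (exact p = 0.8, 0.2 and 0.3). All genes but *Shh* were set against the same mesenchymal mean, which was lower with LiCl. Each of their differences is therefore the gene's own change shifted by the same amount, and they are not separate results. Without that shift, *Ptch1* and *Smo* had log2 fold changes of 0.10 and -0.03 and were not called. The values relative to markers also depend on the markers chosen. Against only *Cdh1* and *Epcam* the difference of *Shh* was 0.34. Against only *Tbx18* and *Pdgfra* the differences were 0.99 for *Gli1*, 0.82 for *Ptch1*, 0.69 for *Smo*, 0.54 for *Gli3* and -0.06 for *Hhip*, and those of *Boc*, *Gas1* and *Gli2* turned to 0.23, 0.37 and 0.32.

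Among markers of other cell types, 6 of 6 skeletal muscle markers were higher with LiCl. This rise lay mainly in LiCl replicates 1 and 3, with sums of 29.9 and 61.4 CPM. LiCl replicate 2 had 4.80 CPM, and the highest control 4.25 CPM. The lists of smooth muscle, endothelium, macrophage, neural crest and glia, metanephric mesenchyme and blood, of 5 genes each, held 0 to 2 higher and 0 to 3 lower genes. Smooth muscle markers summed to 68.1 to 87.3 CPM in the controls and 48.8 to 62.5 CPM with LiCl, with 3 of 5 lower. Most of this sum came from *Acta2*, with means of 50.55 CPM in the controls and 34.42 CPM with LiCl. Endothelial markers overlapped in their sums, with 415 to 518 CPM in the controls and 361 to 450.4 CPM with LiCl.

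A list of 46 other genes of the pathway, ordered by their step, was read in the same fit. Of these, 45 were tested, 10 were higher, 8 were lower and 27 did not pass. The median log2 fold change was 0.03 with all samples. With LiCl replicate 2 alone against the controls fewer were called, as was the case among all tested genes. The share called with all samples, 40.0%, lay near the 21.1% higher and 22.4% lower of all tested genes, and none passed the fold threshold. The other ligand genes were low. *Ihh* had 6.26 ± 0.54 CPM (SD, n = 3) in the controls against 5.79 ± 0.62 CPM after LiCl (log2 fold change -0.11, adjusted p = 0.52, edgeR's quasi-likelihood test). *Dhh* had 9, 7 and 7 reads in the controls against 0, 4 and 1 after LiCl, and was not tested.

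Of the 6 genes of ligand processing and release, 3 were lower and none was higher. *Scube2*, which encodes a secreted protein that helps to release lipid-modified SHH, had 36.3, 24.7 and 29.9 CPM in the controls and 17.9, 15.9 and 16.6 CPM with LiCl. Its log2 fold change, -0.85 (SE 0.13, adjusted p = 0.00068, edgeR's quasi-likelihood test) was the most negative of the list, and the groups did not overlap. The related *Scube1* fell by 0.41 and *Scube3* by 0.14 on the log2 scale (adjusted p = 0.0056 and 0.02). Both lost their call with LiCl replicate 2 alone, at log2 fold changes of -0.44 and -0.14, near those with all samples. *Scube3* also lost it without control replicate 1, LiCl replicate 2 or LiCl replicate 3, with the replicate block and without the filter on low counts, where its adjusted p was between 0.053 and 0.11. *Disp1*, which encodes the transporter that releases SHH from the producing cell, had a log2 fold change of -0.05 (adjusted p = 0.61).

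Of 8 genes of ligand reception, 3 were lower and 1 was higher. *Cdon*, which encodes a co-receptor closely related to BOC, fell as *Boc* did, from 63.3, 55.4 and 62.2 CPM in the controls to 41.5, 48.4 and 48.8 CPM with LiCl. Its log2 fold change was -0.38 (SE 0.08, adjusted p = 0.0035, edgeR's quasi-likelihood test). The call of *Cdon* was lost with LiCl replicate 2 alone, at -0.31 (adjusted p = 0.056). *Mosmo* and *Mgrn1* encode proteins that act to lower SMO at the cell surface. *Mgrn1* fell by 0.31 on the log2 scale, whereas *Mosmo* was 0.30 higher (adjusted p = 0.00088 and 0.0023). For *Mosmo* the call was lost with LiCl replicate 2 alone, at 0.28 (adjusted p = 0.059).

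Of 12 genes for transduction in the cilium, 4 were higher and 1 was lower (41.7% called). *Arl13b*, a small GTPase of the ciliary membrane, and *Evc2*, which forms a complex with SMO at the base of the cilium, were higher by 0.43 and 0.42 on the log2 scale (adjusted p = 0.00043 and 0.00049, edgeR's quasi-likelihood test). *Ift88*, a component of intraflagellar transport, was 0.34 higher (adjusted p = 0.0031), and its call was lost with LiCl replicate 2 alone, at 0.24 (adjusted p = 0.086). *Arrb1*, which encodes a beta-arrestin, fell by 0.37 (adjusted p = 0.00028). Of 18 genes that control GLI proteins, 5 were higher and 1 was lower (33.3% called). *Spop* and *Sufu*, whose products direct GLI degradation and hold GLI proteins in the cytoplasm, were higher by 0.28 and 0.19 (adjusted p = 0.00062 and 0.0066). *Sufu* lost its call with LiCl replicate 2 alone, at 0.22 (adjusted p = 0.069). *Kif7*, a ciliary kinesin, had a log2 fold change of 0.14 (adjusted p = 0.11), and *Gsk3b*, whose product LiCl inhibits, had 0.00 (95% interval -0.14 to 0.14, adjusted p = 0.99).

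**Figure D4:**
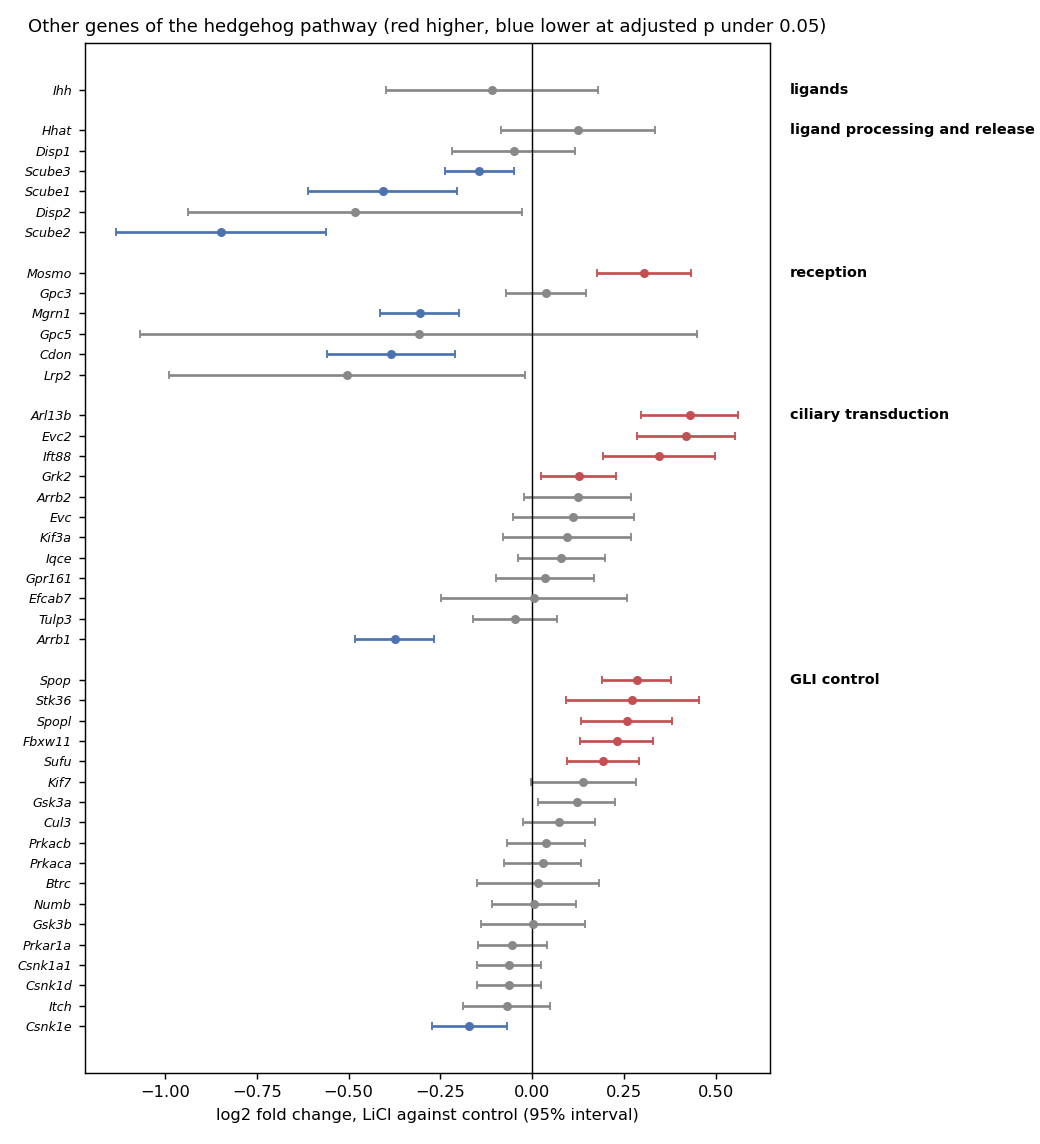
Log2 fold change, LiCl against control (horizontal axis), with its 95% interval for 43 of the 45 tested genes of the list of other pathway genes, grouped by step of the pathway; red genes were higher and blue genes lower at an adjusted p under 0.05. *Scube2* lies farthest to the left at -0.85 and *Arl13b* farthest to the right at 0.43.

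Genes known to respond to hedgehog signaling, other than the 9, were also read. Of 12 such genes, 1 was higher, 3 were lower and 8 did not pass. Their median log2 fold change was -0.09, and 33.3% were called, against 21.1% higher and 22.4% lower among all tested genes. *Foxf1*, which encodes the transcription factor that acts between SHH and BMP4 in the ureteric mesenchyme, had 46.4, 45.9 and 44.2 CPM in the controls and 50.6, 47.1 and 46.6 CPM with LiCl. Its values with LiCl lay just above those of the controls, and the log2 fold change of 0.08 did not pass the test (95% interval -0.04 to 0.20, adjusted p = 0.25, edgeR's quasi-likelihood test). The related *Foxf2* and *Foxl1* had values of -0.15 and -0.12 (adjusted p = 0.57 and 0.097).

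*Bmp4*, whose product promotes smooth muscle formation in the ureter, had 157, 172 and 161 CPM in the controls and 141, 139 and 139.5 CPM with LiCl. The 3 LiCl samples lay close together below the controls, at a log2 fold change of -0.22 (SE 0.05, adjusted p = 0.0049, edgeR's quasi-likelihood test). *Ccnd1*, the gene of cyclin D1, and *Foxc2* fell by 0.34 and 0.14 on the log2 scale (adjusted p = 0.0069 and 0.04), and *Snai1*, a regulator of epithelial to mesenchymal transition, was 0.36 higher (adjusted p = 0.0032). The call of *Foxc2* was lost in 12 of 16 alternatives, among them DESeq2 (adjusted p = 0.13) and limma. *Bmp4*, *Ccnd1*, *Foxc2* and *Snai1* lost their calls with LiCl replicate 2 alone against the controls, at log2 fold changes of -0.23, -0.22, -0.14 and 0.26. Fewer of all tested genes were called in that comparison too. Among 5 genes that respond to BMP4 signaling, *Id4* was 0.49 higher and *Gata6* 0.22 lower (adjusted p = 0.00018 and 0.012). The other 3 were not called, among them *Id2* with a log2 fold change of -0.08 (adjusted p = 0.21). The share called, 40.0%, lay near the 21.1% higher and 22.4% lower of all tested genes.

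The genes whose profile over the 6 samples was most like that of *Gli1* were *Usp11*, *Crebzf*, *Taf1c*, *Mrpl2* and *Mink1*, out of 15448 genes whose mean CPM reached 1. Likeness was the root mean square difference in log2 CPM after subtraction of the control mean, which was 0.0186 for *Usp11* and 0.031 for *Mink1*. The profiles nearest to that of *Shh* were those of *Isl1*, *Borcs5*, *Chrnb2*, *Acacb* and *Cradd*, at 0.0296 to 0.0589. With 6 samples and so many genes, close profiles of this kind are a description only.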

How the data were processed

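RNA-Seq was performed by the study on 6 samples of E12.5 ureter explants (3 control, 3 LiCl) after poly-A enrichment, stranded cDNA synthesis and paired-end sequencing. The authors deposited raw counts per gene without normalization, made with featureCounts after alignment to GRCm39. The methods of the study name HISAT2 as the aligner, whereas the submitters' processing notes list fastp 0.23, STAR 2.7, featureCounts 2.0 and DESeq2 1.40. The annotation release and the strand setting of the counting are not given in the sources used here, so reads of genes overlapping on opposite strands, such as *Arhgap9* with *Gli1* (51.7 reads on average) and *Gm6556* with *Gli3* (107 reads), cannot be assigned with certainty. The FPKM values that the authors deposited per sample equal the counts divided by a sample factor and a gene length, within 4.1e-06%, and zeros matched in 100.0% of values. They were used to compare levels between genes. Symbols came from GENCODE vM21, made for GRCm38, in which 52073 of 56748 identifiers were found. Identifiers without a symbol held 0.191% of the counts.

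Groups were taken from the sample labels. After filterByExpr and TMM scaling, the quasi-likelihood F test of edgeR 4.0.16 (R 4.3.3) was applied to the counts, with Benjamini-Hochberg adjustment over all tested genes, and every adjusted p of a single gene comes from this fit unless another test is named. The study used DESeq2, which was run here as an alternative (1.42.0). A gene was called higher or lower at an adjusted p under 0.05. The common dispersion was 0.00665. Total counts lay between 28473436 and 31266945, and the chi-square per degree of freedom between samples of 1 group was 5.93 to 14.5, above the 1 that sampling noise alone gives, so no sample was a copy of another. Ratios and levels relative to markers were compared with two-sided exact permutation tests, whose smallest p is 0.1.

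The 9 genes and all gene lists were chosen with earlier results of these data known. Named beside them were *Axin2*, *Notum*, the 4 largest called rises and falls of the pathway and target lists, a set of genes of known role, and the 5 nearest profiles. *Scube3*, *Mgrn1*, *Spop*, *Foxf2*, *Foxl1*, *Id4*, *Gata6*, *Ihh*, *Dhh*, *Cdh1*, *Epcam* and *Acta2* were named after their values were seen. A few genes of the lists are counted but not reported here by name.

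The alternatives comprised scaling by RLE or by library size only, DESeq2, testing unfiltered counts or genes with 10 counts or more in each sample, a replicate block, leaving out each replicate, LiCl replicate 2 against the controls, and 2 markers per compartment. In addition, limma 3.58.1 was run on FPKM with a pseudocount of 1 or 0.1 where the mean FPKM reached 0.5, and with a pseudocount of 1 unfiltered. On simulated counts for LiCl against control, over 18322 genes, edgeR recovered 30% of 50 genes changed 1.25-fold, 88% changed 1.5-fold and 100% changed 2-fold or 4-fold, with 9 false calls.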

Additional observations from a re-analysis of the deposited data

How the results depend on the processing

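The counts of 1 gene higher and 4 lower among the 9 hedgehog genes held with scaling by RLE or by library size only, with both other filters, in DESeq2, in limma on FPKM and with each replicate left out, except that without control replicate 2 *Gli3* was also lower. The log2 fold change of *Gli3* lay between -0.27 and -0.11 with each replicate left out. Over 16 alternatives, *Hhip* ranged from -0.85 to -0.62, *Boc* from -0.58 to -0.44, *Gas1* from -0.38 to -0.30 and *Gli2* from -0.43 to -0.34, and each kept its call. *Gli1* ranged from 0.15 to 0.34, with an adjusted p from 3.7e-05 to 0.19. With LiCl replicate 2 against the 3 controls, *Gli1* was no longer called (0.15) and *Shh* was (0.34), so that the 1 higher gene was another one. *Shh*, not called otherwise, changed sign without LiCl replicate 2 (-0.11). In that comparison of 1 LiCl sample, which has less power by construction, 4 other pathway genes were higher and 3 lower, 0 target genes were higher and 0 lower, and 2014 of all genes were higher and 2117 lower. With library size only, all genes split into 3285 higher and 4536 lower, against 3844 and 4071 with TMM.

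Genes past the fold threshold numbered 498 higher and 835 lower of all tested. With limma there were 177 and 141 on log2(FPKM + 1), 347 and 430 on log2(FPKM + 0.1), and 171 and 139 on log2(FPKM + 1) without filter. The pseudocount shrinks the fold changes of low genes by construction. None of the 9 genes passed this threshold under any alternative. Set against 2 instead of 11 mesenchymal markers, all 8 differences moved by the same amount, since they share the marker mean. Of the 7 ratios between these genes, 6 kept their direction with each replicate left out and with 0.1 added to FPKM, and that of *Shh* to *Ptch1* turned to 0.01 without control replicate 2 and without LiCl replicate 1.

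The labels do not say whether same-numbered samples were paired. Their deviations from the group means had correlations of 0.03, -0.08 and 0.10, which show no shared effect but cannot exclude a pairing. With the replicate block, 1 of the 9 genes was higher and 4 were lower, 9 other pathway genes were higher and 7 lower, and 3379 of all genes were higher and 3602 lower. With 3 samples per group, an uncalled gene is limited only by its interval. The simulation changed few genes and used a common dispersion for all, so its recovery of 1.25-fold changes does not carry over to these data. In the main fit *Gli1* at 1.21-fold and *Sufu* at 1.14-fold were called.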
